A study of Homo sapiens with 9 samples.

Results

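The comparison described here sets 3 CCM3-knockout endothelial clones grown on fibronectin against the same 3 clones grown without it, with each clone compared with itself. The 6 libraries were chosen by their labels, which name knockout clones 21, 22 and 23 in both groups, and they are 6 of the 9 libraries of the series. The tested material was poly-A RNA, counted per gene symbol, and 13257 of 28514 symbols passed the filter on low counts. All libraries came from CI-huVEC, immortalized endothelial cells of the human umbilical vein sold by InSCREENeX, at passage 31, and all of them carry the same clone label, HKO. The groups were knockout clones on fibronectin (5 µg per square cm for 48 h, n = 3), the knockout clones with no treatment (n = 3) and wild-type lines with no treatment (n = 3). The knockout was made with CRISPR/Cas9 in exon 3 of CCM3, listed in the files as PDCD10. Each knockout line is 1 clone, so each clone's own history is part of its pair. The spread behind the p-values of the paired fit is that of the fibronectin difference among the 3 clones. Each clone has 1 library per condition, so within a clone a difference between single cultures or libraries cannot be told apart from fibronectin. The labels do not say whether the wild-type libraries, which do not enter the paired fit, came from separate cultures.

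Mutations of CCM3 cause a familial form of cerebral cavernous malformations, in which brain capillaries widen into leaky, thin-walled chambers, and its protein links GCKIII kinases to the STRIPAK phosphatase complex. Fibronectin is a matrix glycoprotein that endothelial cells both secrete and bind, chiefly through the integrin pairs of ITGA5 with ITGB1 and of ITGAV with ITGB3. Engaged integrins assemble focal adhesions, which connect the matrix to actin stress fibres and feed into contractility, SRF-dependent transcription and the YAP and TAZ coactivators.

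Base composition bears on almost every value below, so a GC-rich and a GC-poor transcript are shown first. SF3A2, which encodes a splicing factor subunit, was higher on fibronectin and has a transcript of 66.6% GC, and ITGA2, the collagen receptor subunit alpha 2, was lower and has a transcript of 40.2% GC. Each line holds the first 150 coding bases in frame whose GC share is nearest that of the whole transcript, with G and C in capitals, from GENCODE 29 on GRCh38. The SF3A2 gene lies at chr19:2236504-2248679 on the plus strand and the stretch covers coding bases 4 to 153, and ITGA2 lies at chr5:52989326-53094779 on the plus strand and the stretch covers coding bases 505 to 654.
SF3A2: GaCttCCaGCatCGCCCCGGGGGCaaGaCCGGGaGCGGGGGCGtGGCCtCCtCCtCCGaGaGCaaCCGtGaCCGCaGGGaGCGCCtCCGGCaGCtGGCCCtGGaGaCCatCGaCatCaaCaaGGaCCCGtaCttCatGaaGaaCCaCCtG
ITGA2: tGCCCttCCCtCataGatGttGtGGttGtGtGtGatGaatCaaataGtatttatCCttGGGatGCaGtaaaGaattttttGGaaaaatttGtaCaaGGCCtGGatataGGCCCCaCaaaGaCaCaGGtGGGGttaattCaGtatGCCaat
The first stretch has 100 G or C bases of 150 and the second has 60 of 150.

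With the clone as a block, 899 genes (6.78% of those tested) differed between knockout on fibronectin and knockout at an adjusted p under 0.05. Of these, 659 (4.97%) were higher on fibronectin and 240 (1.81%) were lower. The differences were small, with a median absolute log2 fold change of 0.35 among called genes, and 12 genes rose and 2 fell by at least 2-fold. Libraries of the groups did not overlap for 2030 genes (15.3%) that were higher in every fibronectin library and for 1438 genes (10.8%) that were lower. The log2 ratio of a clone on fibronectin to the same clone without it was positive in all 3 clones for 3028 genes and negative in all 3 for 3607. Clone 21 had the widest spread of ratios, with an SD of 0.326 on the log2 scale over genes of at least 5 CPM (counts scaled to a common library size), against 0.164 in clone 22 and 0.148 in clone 23.

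The ratios rose with the GC content of the gene in all 3 clones, though not evenly over its range. The slope was 0.283 on the log2 scale per 10 percentage points of GC in clone 21, 0.119 in clone 22 and 0.101 in clone 23, over 11427 genes of at least 1 CPM. Their mean was 0.167 ± 0.100 (SD, n = 3), and the exact sign-flip permutation test over 3 clones gave a two-sided p = 0.25, the smallest it can give. Across genes, which are not independent replicates, GC content correlated with the ratio at Pearson's r of 0.686 in clone 21, 0.513 in clone 22 and 0.480 in clone 23. The slopes at a fixed transcript length were 0.254, 0.114 and 0.0978 in clones 21, 22 and 23. In the same fits the ratio also fell with length, most in clone 21. Per doubling of length, the slopes were -0.125, -0.0197 and -0.0120 in clones 21, 22 and 23.

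**Figure D1:**
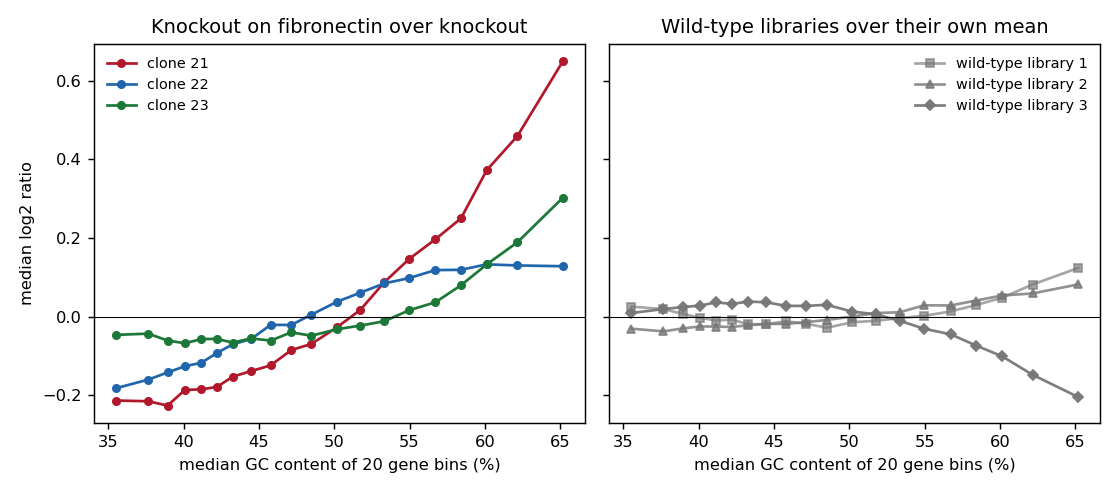
Median log2 ratio of 20 bins of genes, ordered by the GC content of their longest transcript in percent. The left panel has knockout on fibronectin over knockout for clones 21, 22 and 23, and the right panel has each wild-type library over the mean of the 3. All 3 clones end higher than they begin, with a slope of 0.283 per 10 points in clone 21, while the wild-type libraries part to either side of 0. Clone 23 is nearly level at low GC, with -0.046 at 35.5% and -0.061 at 45.8%. Clone 22 is nearly level at high GC, with 0.119 at 58.4% and 0.128 at 65.2%.

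The called genes followed base composition closely. Genes called higher on fibronectin had a median GC content of 62.0%, those called lower had 40.3%, and all tested genes with a value had 48.0%. In the quintile of genes with the most GC (57.6% to 73.8%), 538 were called higher and 1 was called lower, and the quintile's median ratio was 0.42 in clone 21, 0.13 in clone 22 and 0.16 in clone 23. In the quintile with the least GC (30.2% to 40.7%), 0 were called higher and 124 lower, with median ratios of -0.21, -0.15 and -0.05 in clones 21, 22 and 23. Most results below are therefore given with their value or count after a correction for GC.

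Single libraries also differed in this respect. Against the mean of the 6 knockout libraries, the slope on GC per 10 points was 0.115, 0.0541 and 0.0815 for clones 21, 22 and 23 on fibronectin, and -0.168, -0.0641 and -0.0190 for the same clones without it. The fibronectin libraries averaged 0.0836 ± 0.0305 and the knockout libraries -0.0836 ± 0.0762 (SD, n = 3 each), with an exact permutation p = 0.10, two-sided, the smallest possible with 3 against 3. These averages mirror each other by construction, since the slopes are taken against the mean of the same 6 libraries. The permutation does not use the pairing by clone. The wild-type libraries, which had no treatment, had slopes of -0.121, -0.106 and -0.211 against that same mean. Measured against the mean of their own group, wild-type libraries differed by 0.0252, 0.0399 and -0.0652 per 10 points. Whether the slope on fibronectin arose in the cells or in library preparation was not tested.

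After a correction that removes each library's curve on GC, 129 genes (0.973%) were called, 64 (0.483%) higher on fibronectin and 65 (0.490%) lower, and 83 of them were among the 899. The correction also removes any real difference that runs with GC, so it can hide changes as well as reveal them. Of the 899 genes, 851 kept their direction. Same-sign ratios in all 3 clones then counted 2324 genes higher and 2564 lower. The top quintile by GC, with 538 and 1 before, had 10 genes called higher and 24 lower. Counts of called list members below stand beside 4.97% of all tested genes called higher and 1.81% lower in the paired fit. With the correction these shares are 0.483% and 0.490%. No test of a list against them was run.

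**Figure D2:**
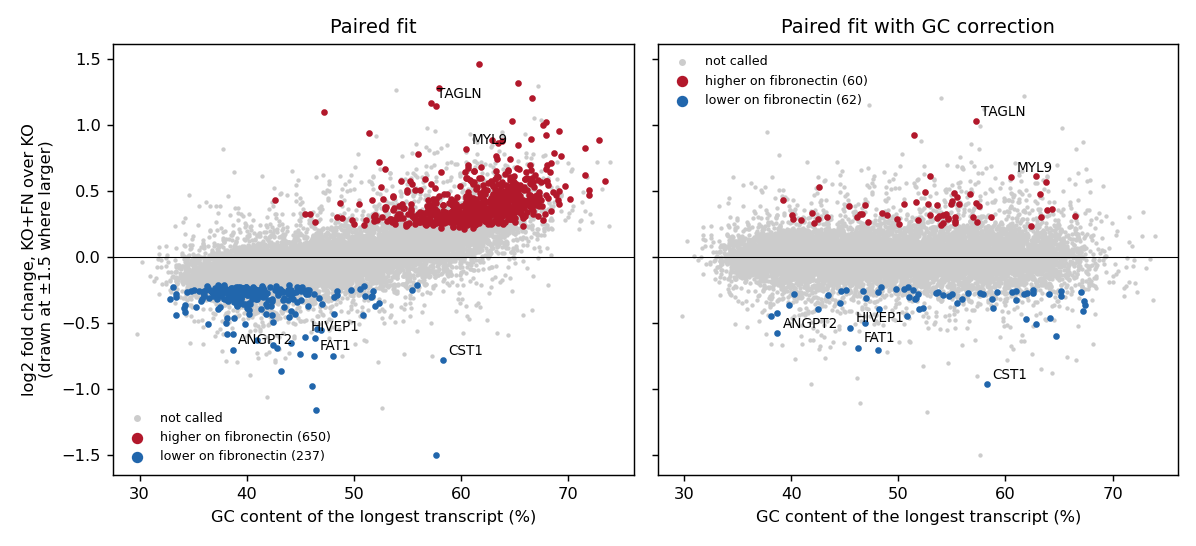
Log2 fold change of knockout on fibronectin over knockout for each gene with a GC value, against the GC content of its longest transcript in percent, from the paired fit on the left and with the GC correction on the right. Red points were called higher on fibronectin, blue points lower and grey points not called, and values beyond 1.5 are drawn at the edge. The tilted cloud of the left panel lies flat in the right one, where TAGLN and MYL9 are still called higher, and ANGPT2, FAT1, HIVEP1 and CST1 lower.

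Genes of the contractile actin filament included the gene with the smallest p-value, and 3 of them were called with and without the GC correction. TAGLN, which encodes the actin-bundling protein transgelin and is a classical SRF target, had 32.8, 23.9 and 21.1 CPM in clones 21, 22 and 23 on fibronectin, 10.7, 11.4 and 11.4 CPM in the same clones without it, and 44.3, 47.6 and 42.2 CPM in wild-type. Every fibronectin library lay above every knockout library and below every wild-type library. TAGLN rose by a log2 fold change of 1.17 (SE 0.12, adjusted p = 8.79e-05) in the paired fit and by 1.03 after the GC correction, where it was also called. MYL9, the regulatory light chain of non-sarcomeric myosin, had 11.9, 11.5 and 15.5 CPM on fibronectin and 5.55, 7.07 and 9.19 CPM without it, with no overlap, and averaged 28.6 ± 1.45 CPM in wild-type (SD, n = 3). Its log2 fold change was 0.82 (SE 0.11, adjusted p = 0.00167), or 0.60 and called with the GC correction.

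TPM2, a tropomyosin that runs along actin filaments, had 258, 221 and 232 CPM on fibronectin and 173, 181 and 193 CPM without it, again with no overlap (log2 fold change 0.35, SE 0.07, adjusted p = 0.0139, and 0.26 and called with the GC correction). CNN2, the actin-binding calponin of non-muscle cells, had 105, 109 and 109 CPM on fibronectin and 79.9, 89.9 and 95.7 CPM without it (log2 fold change 0.26, SE 0.07, adjusted p = 0.0274), and it was not called with the correction, at 0.15. These are the 4 called genes of the 29 tested members of the list of actin contractility and SRF targets, in which 4 were called higher, 0 lower and 25 in neither direction. The median of the list was 0.03 on the log2 scale, against -0.02 for all tested genes. With the correction 3 members were called, all higher. Without it, every fibronectin library lay above every knockout library in 11 of the 29 members, against 0 with the reverse. Over all tested genes these shares were 15.3% and 10.8%. The tested members had a median GC content of 51.8%, against 48.0% for all tested genes.

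SRF binds a CArG box, and such a box lies in the CNN2 promoter, shown here because CNN2 was the called member of that list whose window in the RefSeq promoter table holds one. The sequence is the 250 bases before the start of CNN2, chr19:1026358-1026607 on the plus strand of GRCh38.p14, with the box in capitals, beginning 89 bases before the start.
CNN2: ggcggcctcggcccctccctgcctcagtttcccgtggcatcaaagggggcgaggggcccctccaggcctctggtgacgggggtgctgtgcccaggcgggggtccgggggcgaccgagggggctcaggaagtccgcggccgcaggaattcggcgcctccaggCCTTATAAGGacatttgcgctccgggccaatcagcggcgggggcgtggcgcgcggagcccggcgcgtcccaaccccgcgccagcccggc
Searched in windows of 250 bases before to 50 bases after the start, where the motif is its own reverse complement, a CArG box was found in 454 of 35116 promoters (1.29%). It was found in 9 of 57 windows (15.8%) of the contractility list, a list that was drawn up from known SRF targets, in 10 of 666 windows (1.5%) of genes called higher and in 4 of 296 (1.35%) of genes called lower. The promoters of TAGLN and MYL9 were not analysed here. A match is a stretch of letters and not a measured binding site.

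**Figure D3:**
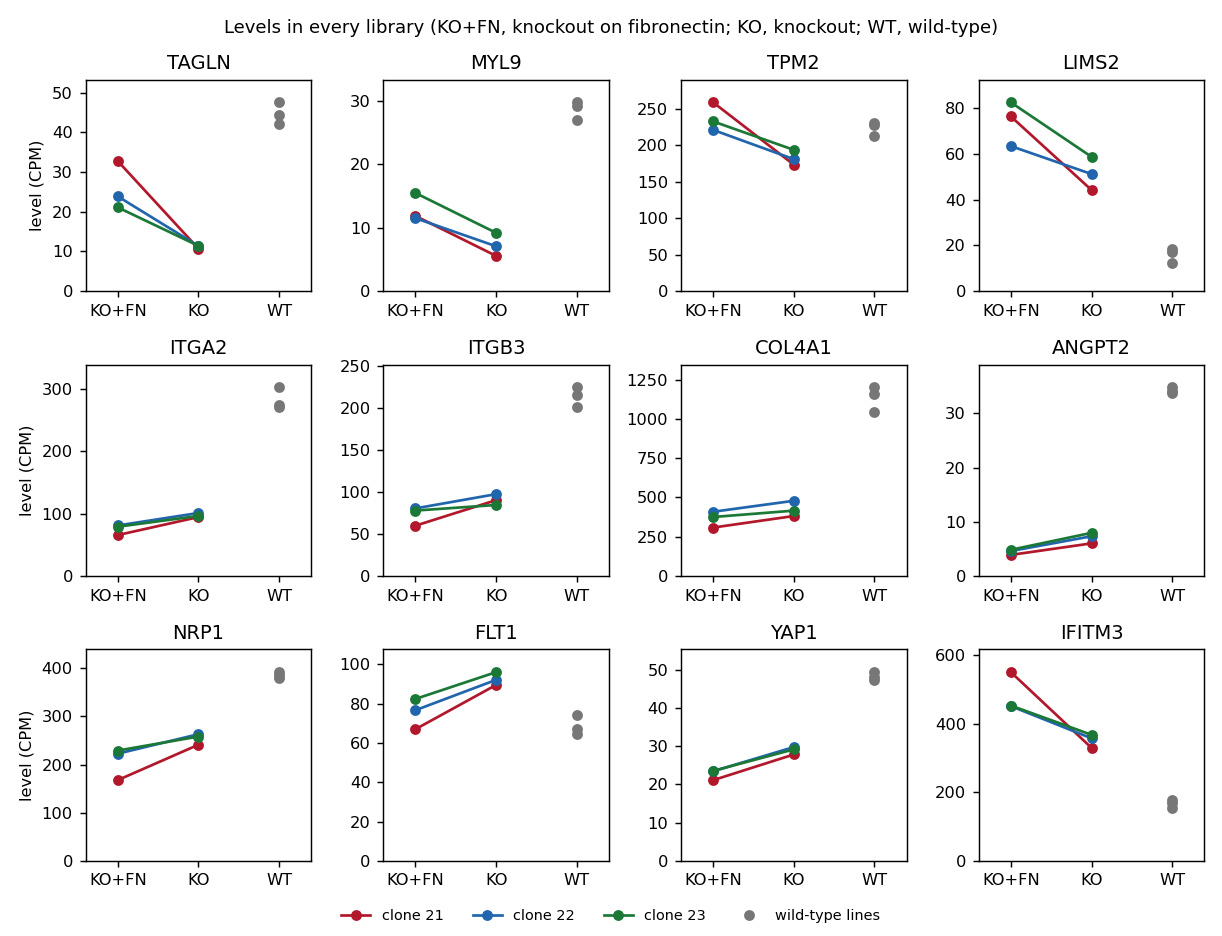
Level in CPM in every library for 12 genes, with knockout clones on fibronectin (KO+FN) on the left of each panel, the same clones without it (KO) in the middle and wild-type lines (WT) on the right. Lines join the libraries of 1 clone. TAGLN, MYL9, TPM2, LIMS2 and IFITM3 are higher on fibronectin in all 3 clones, and the integrin, collagen and angiogenic genes and YAP1 are lower.

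Genes of fibronectin and of the integrins that bind it were lower or not called. FN1 itself, the fibronectin gene, had 1065, 1323 and 1298 CPM on fibronectin and 1427, 1417 and 1374 CPM without it, and 14675 ± 764 CPM in wild-type (SD, n = 3). The fibronectin libraries all lay below the knockout libraries, yet the log2 fold change of -0.22 was not called (SE 0.07, adjusted p = 0.0646), nor was its value of -0.12 after the GC correction. ITGA5, the alpha subunit of the main fibronectin receptor, had 839, 1041 and 1058 CPM on fibronectin and 850, 1044 and 1076 CPM without it. Its groups overlapped, and its log2 fold change of -0.04 was not called (SE 0.06, adjusted p = 0.726), nor was -0.12 after the correction.

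Its partner ITGB1, the common beta subunit, had 847, 1026 and 1046 CPM on fibronectin and 1151, 1197 and 1137 CPM without it, with no overlap (log2 fold change -0.29, SE 0.07, adjusted p = 0.0238). ITGAV, the alpha subunit of vitronectin and fibronectin receptors, had 108, 122 and 131 CPM on fibronectin and 155, 154 and 134 CPM without it (log2 fold change -0.32, adjusted p = 0.0311). Both were lower in every clone, and neither was called after the GC correction, at -0.16 for ITGB1 and -0.18 for ITGAV. ITGB3, which pairs with ITGAV, had 60.0, 80.6 and 78.0 CPM on fibronectin, against 90.4, 97.6 and 84.6 CPM without it. Its log2 fold change was -0.35 (SE 0.08, adjusted p = 0.0223), and its value of -0.38 after the correction was called, while -0.33 with GC and length corrected was not. Among 10 tested genes of fibronectin and its receptors 0 were called higher, 3 lower and 7 in neither direction (median -0.10, against -0.02 for all tested genes), and with the correction 1 was called, lower.

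Receptors for collagen and laminin were split. ITGA2 had 65.6, 81.0 and 79.0 CPM on fibronectin and 94.5, 101 and 96.3 CPM without it. Every fibronectin library lay below every knockout library (log2 fold change -0.40, SE 0.07, adjusted p = 0.011), and ITGA2 was called with the correction too, at -0.28. ITGA6, a laminin receptor subunit, stood at -0.27 on the log2 scale (adjusted p = 0.0238), while its partner ITGB4 rose by 0.34 (adjusted p = 0.0188) and CD151, a tetraspanin bound to laminin-binding integrins, rose by 0.31 (adjusted p = 0.0259). None of those 3 was called after the GC correction, at -0.17, 0.04 and 0.04 for ITGA6, ITGB4 and CD151, and the last of these turned to -0.01 when length was corrected as well. Of the 12 tested members of the list of other integrin subunits 2 were called higher, 2 lower and 8 in neither direction, with 1 called, lower, after the correction.

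Inside the focal adhesion, LIMS2, the adaptor PINCH-2 that binds integrin-linked kinase, had 76.5, 63.5 and 82.7 CPM on fibronectin and 44.3, 51.3 and 58.8 CPM without it. The groups did not overlap (log2 fold change 0.51, SE 0.08, adjusted p = 0.00668, and 0.24 and called with the correction). ZYX and TRIP6, which encode LIM-domain proteins of adhesion sites, each stood at 0.34 on the log2 scale (adjusted p = 0.018 and 0.0218), and ROCK1, a kinase that drives myosin contraction, fell by 0.31 (adjusted p = 0.0206). After the correction they stood at 0.00 for ZYX, 0.04 for TRIP6 and -0.19 for ROCK1, and none was called. Among 39 tested focal adhesion genes, 5 were called higher, 2 lower and 32 in neither direction (median -0.04), and with the correction LIMS2 alone was called.

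Among matrix genes the called members went both ways. LAMA5, a laminin chain with 66.4% GC, and COL18A1, the collagen from which endostatin is cut, with 67.2% GC, had log2 fold changes of 0.39 and 0.31 (adjusted p = 0.0188 and 0.0236). With the correction they were not called, at 0.01 for LAMA5 and -0.09 for COL18A1. COL4A1, a chain of the basement membrane collagen, had 308, 409 and 376 CPM on fibronectin and 382, 479 and 416 CPM without it. Each clone was lower on fibronectin although the groups overlapped (log2 fold change -0.25, SE 0.06, adjusted p = 0.0247), and COL4A1 was called with the correction at -0.35. Among 34 tested matrix genes, 5 were called higher, 2 lower and 27 in neither direction (median -0.09), and with the correction 0 were called higher and 2 lower.

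Among matrix proteases and their inhibitors 3 of 26 were called higher, 5 lower and 18 in neither direction. MMP1, interstitial collagenase, fell by 0.26 on the log2 scale and averaged 942 ± 77.1 CPM on fibronectin and 1111 ± 90.1 CPM without it (SD, n = 3 each). MMP16, a membrane-bound matrix metalloproteinase, fell by 0.51 (adjusted p = 0.0223), and MMP17, another one, rose by 0.79 (adjusted p = 0.0192), as did TIMP1, a protease inhibitor, by 0.29 (adjusted p = 0.0237). None of these 4 was called after the GC correction, in which 0 members of the list were called higher and 2 lower. MMP1 was called lower with GC and length corrected (adjusted p = 0.0288).

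Several genes of angiogenesis were called lower with and without the correction. ANGPT2, the angiopoietin that antagonizes the TEK receptor, had 3.88, 4.59 and 4.82 CPM on fibronectin and 6.01, 7.32 and 7.95 CPM without it, and 34.2 ± 0.55 CPM in wild-type (SD, n = 3). Every fibronectin library lay below every knockout library (log2 fold change -0.70, SE 0.13, adjusted p = 0.011), and the corrected value of -0.57 was called. NRP1, a coreceptor of VEGF, had 168, 223 and 229 CPM on fibronectin and 241, 263 and 258 CPM without it (log2 fold change -0.34, SE 0.07, adjusted p = 0.0169). FLT1, the VEGF receptor 1, had 67.0, 76.7 and 82.4 CPM on fibronectin, against 89.5, 92.1 and 96.1 CPM without it (log2 fold change -0.32, SE 0.07, adjusted p = 0.018). Neither gene's groups overlapped, and both were called with the correction, at -0.26 for NRP1 and -0.25 for FLT1. Among 41 tested angiogenic and tip cell genes, 1 was called higher, 5 lower and 35 in neither direction (median -0.04), and with the correction 0 were called higher and 6 lower. Of all tested genes 4.97% were called higher and 1.81% lower, and with the correction 0.483% and 0.490%.

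YAP1, the coactivator of the Hippo pathway, had 21.1, 23.5 and 23.6 CPM on fibronectin and 27.9, 29.8 and 29.2 CPM without it. All 3 fibronectin libraries were lower (log2 fold change -0.37, SE 0.08, adjusted p = 0.0188), and YAP1 was called with the GC correction at -0.28 but not with GC and length corrected, at -0.24. The other called members of its list, NT5E, DLC1 and PTPN14, had log2 fold changes of -0.23, -0.28 and -0.25 and were not called after the correction. Among 28 tested YAP and TAZ genes, 0 were called higher, 4 lower and 24 in neither direction, with a median of -0.05. In TGF-beta and BMP signalling 0 of 37 were called higher, 3 lower and 34 in neither direction (median -0.08). LTBP1, which holds latent TGF-beta in the matrix, fell by 0.29 (adjusted p = 0.0255) and was called with the correction at -0.31, whereas SMURF2, a ubiquitin ligase of the pathway, and SKIL, a repressor of SMAD signalling, fell by 0.34 and 0.30 and were not called with it.

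Endothelial identity genes were present, with 43 of 44 listed genes passing the low-count filter. Of these 43, 3 were called higher, 1 lower and 39 in neither direction (median 0.05), the one that fell being FLT1. The shares over all tested genes were 4.97% higher and 1.81% lower. LYL1, a transcription factor, ICAM2, an adhesion protein, and STAB1, a scavenger receptor, rose by 0.44, 0.27 and 0.25 on the log2 scale, and after the correction stood at 0.30, 0.13 and -0.02 and were not called. Of 29 endothelial junction genes 0 rose and 1 fell, GJA1, the gap junction protein connexin 43 (log2 fold change -0.22, and -0.10 and not called with the correction), so that 0 junction genes were called after it. Among 26 Notch genes 2 rose and 1 fell, and with the correction none of those 3 was called and 1 other was called, lower. Among 12 mesenchymal genes 0 rose and 3 fell, and with the correction FAP alone was called. The mesenchymal members were FAP, a membrane protease, ZEB2, a transcriptional repressor, and NT5E. FAP differed greatly between clones, with 33.0, 6.12 and 4.03 CPM in clones 21, 22 and 23 on fibronectin and 44.6, 11.9 and 4.96 CPM without it, so its groups overlapped while each clone was lower (log2 fold change -0.58, SE 0.11, adjusted p = 0.0139, and -0.42 and called with the correction).

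The edited gene was not called. PDCD10 had 37.8, 35.3 and 36.1 CPM on fibronectin, 42.3, 35.6 and 37.6 CPM without it and 49.3 ± 3.49 CPM in wild-type (SD, n = 3). The knockout groups overlapped, and the log2 fold change of -0.10 was not called (SE 0.08, adjusted p = 0.421). Gene counts do not show a small edit in exon 3. While 4.97% of all tested genes were called higher and 1.81% lower, the list of its partners was near these shares. In the list of the CCM complex, GCKIII kinases and STRIPAK 2 of 29 were called higher, 0 lower and 27 in neither direction (median -0.09). Those were STK25, a GCKIII kinase that binds CCM3, with a log2 fold change of 0.29 (adjusted p = 0.0188), and CCM2, a scaffold mutated in the same disease, with 0.30 (adjusted p = 0.0347). Neither was called after the GC correction, but STK25 was called higher with GC and length corrected (adjusted p = 0.0391).

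KLF2 and KLF4, flow-responsive transcription factors that rise when the CCM complex is lost, are named here after their values were seen. KLF2 had 78.5, 59.3 and 78.3 CPM on fibronectin and 61.1, 66.5 and 71.4 CPM without it, and 7.0 ± 0.925 CPM in wild-type (SD, n = 3). Clone 22 was lower on fibronectin and the other 2 were higher, and the log2 fold change of 0.09 was not called (adjusted p = 0.528). After the GC correction KLF2 was called lower, at -0.26, so its direction depends on that choice. KLF4 averaged 29.1 ± 1.60 CPM on fibronectin, 27.5 ± 1.60 CPM without it and 3.33 ± 0.405 CPM in wild-type (SD, n = 3 each), with a log2 fold change of 0.06 that was not called and turned to -0.03 with the correction. Among genes of the KLF2 and KLF4 axis 1 of 20 was called higher, 0 lower and 19 in neither direction. The member that rose was ASS1, an enzyme of arginine synthesis, with 106, 106 and 73.9 CPM on fibronectin and 70.0, 75.2 and 65.0 CPM without it (log2 fold change 0.41, SE 0.08, adjusted p = 0.0139, and 0.27 and called with the correction).

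In the interferon-response list 6 of 39 members were called higher, 1 lower and 32 in neither direction, where 4.97% of all tested genes were called higher and 1.81% lower. The list's median was 0.18 on the log2 scale, against -0.02 for all tested genes. By clone that median was 0.20 in clone 21, 0.16 in clone 22 and -0.01 in clone 23. IFITM3, an antiviral membrane protein, had 550, 451 and 453 CPM on fibronectin and 329, 357 and 367 CPM without it. Its groups did not overlap (log2 fold change 0.43, SE 0.07, adjusted p = 0.0102), and it was called with the correction at 0.31. IFITM1 rose by 0.53 and IFITM2 by 0.31 on the log2 scale, of which IFITM1 was called with the GC correction, at 0.49, but not with GC and length corrected, at 0.39. The IFITM genes are close relatives in sequence, so reads may be divided between them uncertainly. IFI27, an interferon-induced mitochondrial protein, had 149, 77.2 and 46.4 CPM in clones 21, 22 and 23 on fibronectin and 92.0, 64.9 and 37.4 CPM without it. Its groups overlapped but every clone was higher (log2 fold change 0.40, SE 0.08, adjusted p = 0.014), and the corrected value was 0.40 and called. With the correction 4 members were called higher and 0 lower, and the median of the list was 0.10.

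In the inflammatory and NF-kB list 1 of 30 rose, ICAM1, a leukocyte adhesion molecule, by 0.29 (adjusted p = 0.0192), and 1 fell, the cytokine gene TNFSF15, by 0.67 (adjusted p = 0.0415). Neither was called with the GC correction, but ICAM1 was called higher with GC and length corrected (adjusted p = 0.0424). Of 36 immediate early and AP-1 genes 0 were called higher, 2 lower and 34 in neither direction (median -0.07). DUSP6, a phosphatase of ERK, had 87.6, 78.2 and 84.1 CPM on fibronectin and 113, 94.5 and 97.4 CPM without it, with no overlap (log2 fold change -0.31, SE 0.07, adjusted p = 0.0188, and -0.25 and called with the correction). FOSB, an AP-1 subunit, fell by 1.51 (SE 0.42, adjusted p = 0.0381) but stood at 0.192 ± 0.0678 CPM on fibronectin and 0.531 ± 0.146 CPM without it (SD, n = 3 each), a level of few reads, and was not called with the correction. The correction called 4 members lower, DUSP6 and, named after their values were seen, DUSP4, MAFF and IER2, of which DUSP4 was not called with GC and length corrected. These are a phosphatase of ERK, a small MAF transcription factor and an immediate early gene.

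The coagulation list had 1 of 26 genes higher, 2 lower and 23 not called. F2RL1, the protease-activated receptor 2, had 16.3, 17.8 and 18.1 CPM on fibronectin and 23.5, 22.3 and 23.4 CPM without it, with no overlap (log2 fold change -0.43, SE 0.09, adjusted p = 0.0166). TFPI2, an inhibitor of plasmin and other proteases, had 22.5, 6.95 and 6.30 CPM in clones 21, 22 and 23 on fibronectin and 29.1, 10.2 and 9.22 CPM without it. Clone 21 was the highest in both groups, and all 3 clones were lower on fibronectin (log2 fold change -0.50, SE 0.10, adjusted p = 0.0139). Both genes were called with the correction, at -0.35 for F2RL1 and -0.36 for TFPI2.

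Housekeeping and metabolic lists had called members that were almost all higher on fibronectin, as 659 of the 899 called genes were, and the share of all tested genes called higher was 4.97%. In the list of oxidative stress and NRF2, the regulator of antioxidant genes, 8 of 35 were called higher, 0 lower and 27 in neither direction. FTL, the ferritin light chain, rose by 0.30 (adjusted p = 0.0202), and with the correction 0 members were called. In the cholesterol list 5 of 39 were called higher, 1 lower and 33 in neither direction. FASN, fatty acid synthase, and SREBF1, the regulator of lipid synthesis, rose by 0.48 and 0.41, and STARD4, a sterol carrier, fell by 0.41 (adjusted p = 0.0188, 0.0195 and 0.0212), and with the correction 0 were called. The autophagy and lysosome list had 3 of 43 higher and 0 lower, led by CTSD, the protease cathepsin D (log2 fold change 0.47, adjusted p = 0.0169), and with the correction 0 were called. The lists of p53 targets (3 of 32), hypoxia and glycolysis (3 of 38), spliceosome and RNA binding (5 of 80) and translation factors (3 of 59) had members called higher and 0 called lower, and with the correction 0 called in either direction. Of 36 genes of the unfolded protein response 0 were called. In apoptosis 3 of 34 were called higher and 0 lower, and 1 higher with the correction. In heat shock 1 of 24 was called higher and 1 lower, and 1 higher with the correction. In the proteasome 0 of 49 were called, and 1 higher with the correction. Among replication-dependent histones 0 of 12 were called with or without it, and among small nucleolar RNA host genes 1 of 16, higher, and 0 with the correction.

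Of 82 tested cytosolic ribosomal protein genes 78 had a log2 fold change above 0, against 6144 of all 13257 tested genes, with 10 called higher, 0 lower and 72 not called, and a median of 0.12. The median was 0.25 in clone 21, 0.13 in clone 22 and -0.05 in clone 23, so the direction of the list was not shared by all 3 clones. RPL28 had 512, 434 and 465 CPM on fibronectin and 310, 357 and 383 CPM without it. The groups did not overlap (log2 fold change 0.40, SE 0.08, adjusted p = 0.0139), and RPL28 was called with the GC correction, at 0.31, but not with GC and length corrected, at 0.36. With the correction 2 members of the list were called higher and 0 lower, and the median of the list was 0.14. Ribosomal protein genes have many processed pseudogenes, so their counts are uncertain. Of 75 mitochondrial ribosomal protein genes 9 rose and 0 fell, led by MRPL12 at 0.52, and of 81 nuclear-encoded respiratory chain genes 5 rose and 0 fell, led by NDUFA13 at 0.50. With the correction 0 of the mitochondrial ribosomal genes were called higher and 1 lower, and 1 respiratory chain gene was called, higher. The medians of the mitochondrial ribosomal and respiratory chain lists were 0.069 and 0.064, or 0.095 and 0.114 with the correction. Their medians in clone 23 were -0.013 and -0.017 without the correction. Zinc finger genes of the ZNF family, which have a median GC content of 43.3%, had 5 of 427 higher and 7 lower with a median of -0.09, and after the correction 0 were called.

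Of 49 proliferation genes, 3 were called higher, 2 lower and 44 in neither direction (median -0.04). Over all tested genes 4.97% were called higher and 1.81% lower. CDC25B, a phosphatase that activates CDK1, was higher by 0.33 (adjusted p = 0.0139). TOP2A, the topoisomerase of dividing cells, was lower by 0.25 (adjusted p = 0.0328). With the correction 0 of the list were called, CDC25B and TOP2A included.

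**Figure D4:**
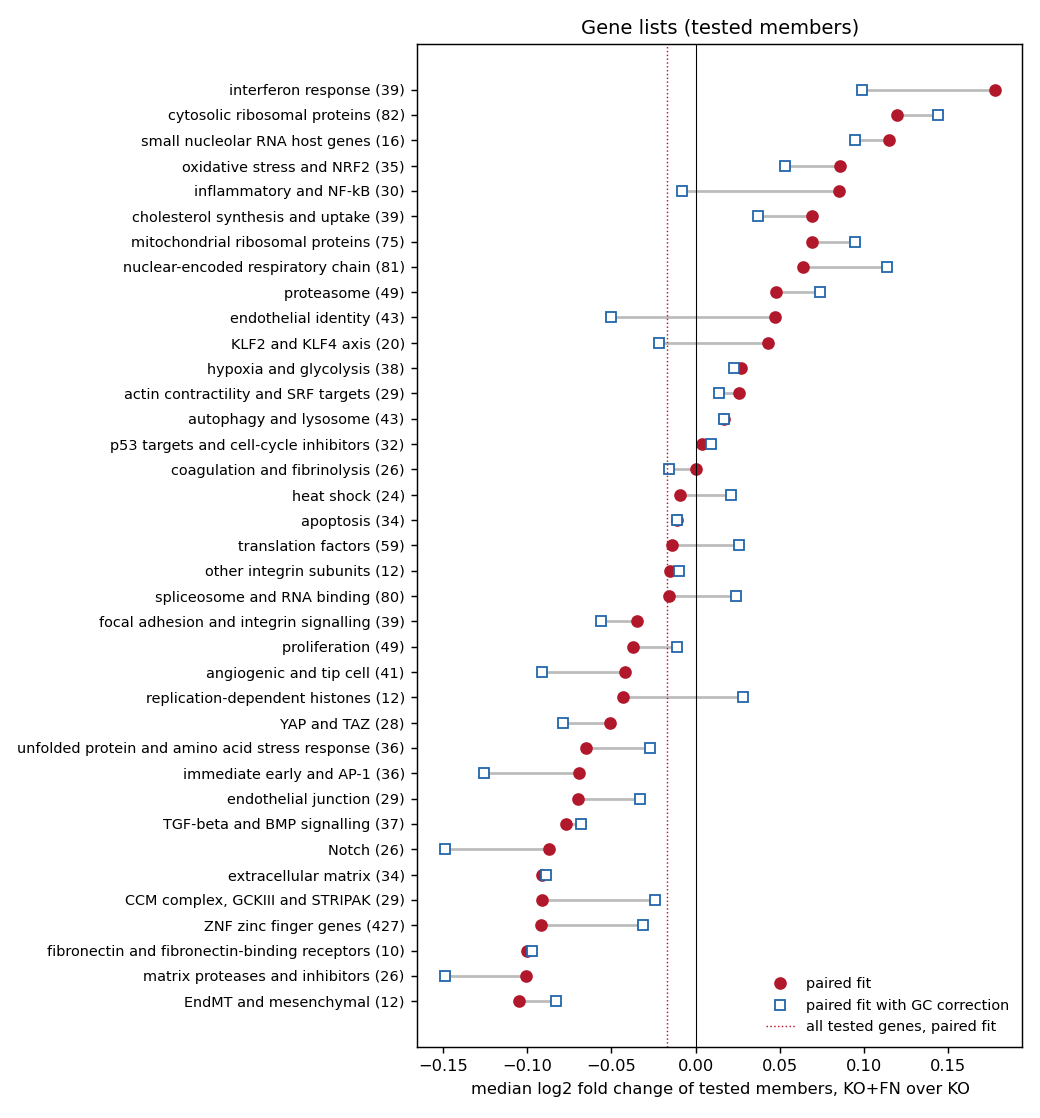
Median log2 fold change of knockout on fibronectin over knockout for each gene list with at least 10 tested members, whose number stands in parentheses. Red circles are the paired fit, open squares the paired fit with the GC correction, and the dotted line is the median of all tested genes, -0.02. Most lists lie within 0.1 of 0 under both, and the interferon list is the highest of the paired medians at 0.18. With the GC correction the cytosolic ribosomal list is the highest, at 0.14.

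Outside the lists, the genes with the smallest p-values included HIVEP1, a zinc finger protein that binds enhancer elements. It had 13.7, 19.2 and 17.5 CPM on fibronectin and 25.1, 26.9 and 23 CPM without it, with no overlap (log2 fold change -0.60, SE 0.10, adjusted p = 0.00668, and -0.53 and called with the correction). PALM, which encodes the membrane protein paralemmin, had 17.4, 18.5 and 17 CPM on fibronectin and 9.61, 12 and 11.3 CPM without it (log2 fold change 0.67, SE 0.10, adjusted p = 0.00371). Its transcript has 67.9% GC, and it was not called with the correction, at 0.25. AMDHD2, CLUH and SF3A2, which belongs to the spliceosome list, likewise rose, by 0.65, 0.44 and 0.57, and were not called with it. C19orf48 and C19orf24 rose by 0.47 and 0.89 and were still called, at 0.30 and 0.61. CLUH was called higher with GC and length corrected (adjusted p = 0.0271).

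The largest changes among called genes of at least 1 CPM included several of few reads. Higher were LSR, ZNHIT2, SPATA2L and COMTD1, with log2 fold changes of 1.03, 1.02, 1.0 and 0.96, none of which was called with the correction, and HAGHL (0.88) and the small nucleolar RNA gene SNORD104 (0.94), which were. SNORD104 had 2.95, 2.11 and 2.66 CPM on fibronectin and 1.11, 1.27 and 1.54 CPM without it, but small nucleolar RNAs lie inside host transcripts and carry no poly-A tail, so its reads may belong to the host. Lower were AKAP2 at -0.98, CST1, a secreted cystatin, at -0.78, FAM196B at -0.75 and FAT1, a giant cadherin, at -0.75. FAT1 had 4.89, 4.84 and 2.43 CPM in clones 21, 22 and 23 on fibronectin and 9.11, 6.81 and 4.12 CPM without it, so clone 23 was the lowest in both groups and each clone was lower on fibronectin. CST1, FAM196B and FAT1 were called with the correction, at -0.96, -0.71 and -0.69, and AKAP2 was not.

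Most markers of other cell types had too few counts to be tested, and 2 of those tested were called. Of 13 smooth muscle and pericyte markers 2 passed the filter, SMTN and RGS5, and 0 were called, with summed levels of 29 to 35.1 CPM on fibronectin, 22.7 to 30.9 CPM without it and 125 to 142 CPM in wild-type. MYH11 and CNN1, defining genes of smooth muscle, had 3 to 7 counts and 0 to 1 counts on fibronectin and 1 to 6 and 0 counts without it. Of 11 fibroblast markers 2 were tested and FAP alone was called, and COL1A1 had at most 5 counts in any library. Summed levels of the fibroblast markers were 4.50 to 33.2 CPM on fibronectin, 5.47 to 44.8 CPM without it and 6.54 to 8.11 CPM in wild-type. Of 11 epithelial markers 4 were tested and 0 called, but all 4 log2 fold changes were positive, with a median of 0.21, or 0.10 with the correction. Their summed level was 542 to 636 CPM on fibronectin, 491 to 523 CPM without it and 774 to 819 CPM in wild-type, so the knockout groups did not overlap, and KRT14 and CLDN4 had 0 counts in every library. Of 13 leukocyte markers 5 were tested and CD14, a monocyte coreceptor, was called higher, with 54, 18 and 44 counts on fibronectin, 13, 15 and 16 counts without it and 2, 2 and 4 counts in wild-type, while PTPRC had at most 3 counts in any library. CD14 was not called with the correction. The summed level of the leukocyte markers was 32.6 to 35.0 CPM on fibronectin, 27.8 to 28.8 CPM without it and 17.6 to 18.3 CPM in wild-type, again without overlap. Most of the leukocyte sum came from CD68, with 783 to 1089 counts on fibronectin and 653 to 811 without it. KRT7 and KRT18 made up most of the epithelial sum. Of single tested genes, 15.3% were higher in every fibronectin library than in every knockout library. The part of other cell types in the results was not tested. In bulk RNA, fewer cells of a type and less RNA per cell cannot be told apart.

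In the authors' deposited table of the same comparison, 126 of 19986 genes had an adjusted p under 0.05, 111 higher and 15 lower on fibronectin, and 117 genes were common to these 126 and to the 899 of the paired fit. TAGLN led that table with a log2 fold change of 0.85 and an adjusted p = 5.33e-10 in the authors' deposited table, which also listed IFITM3 at 0.40, TPM2 at 0.33, MYL9 at 0.50, LIMS2 at 0.41, ITGA2 at -0.34, YAP1 at -0.31 and ANGPT2 at -0.43 with an adjusted p under 0.05.

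The number of calls at an adjusted p under 0.05 changed with the pairing and with the clone left out. Without the clone as a block edgeR called 0 genes, with 2700 at an unadjusted p under 0.05 against 3557 in the paired fit, and with the block DESeq2 called 306 and limma-voom 837. Without clone 23 edgeR called 0 genes, without clone 21 it called 526, and without clone 22 it called 837. At an unadjusted p under 0.05 these fits had 2782, 2221 and 2397 genes. All 899 genes of the paired fit kept their direction in each of them.

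**Figure D5:**
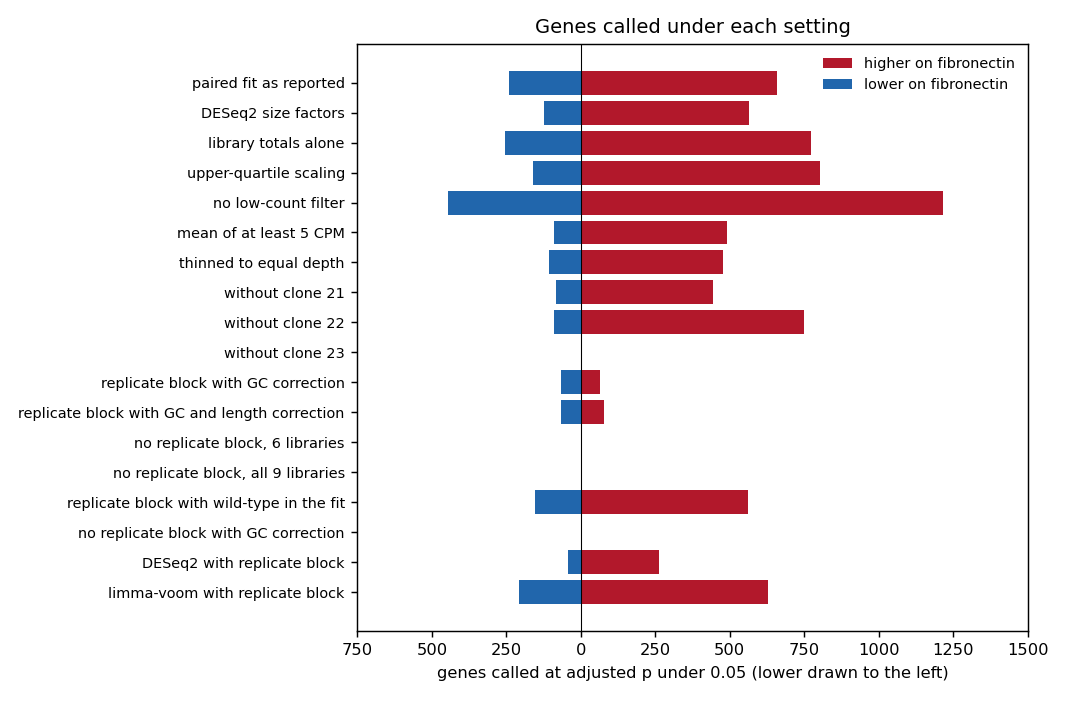
Number of genes called at an adjusted p under 0.05 under each setting, with genes higher on fibronectin drawn to the right in red and genes lower on fibronectin to the left in blue. The paired fit has 659 higher and 240 lower, the GC correction leaves 64 and 65, and the fits without the clone block or without clone 23 have 0 or 1.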

How the data were processed

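RNA was measured in 9 libraries, 6 of which enter the comparison. The authors deposited raw counts per gene symbol, and the submitters' processing notes name the aligner STAR, the counter HTSeq and the build hg19 (GRCh37). Tool versions and how strand was handled are not given in the sources used here. Libraries were made with a stranded poly-A kit, per the labels' protocols. Deposited FPKM values, normalised by the authors for depth and length, were used only with the counts to recover transcript lengths, and the authors deposited a table of their own comparison that gives each gene a p-value, its adjusted form and a log2 fold change, from a program not given in the sources used here. Total counts per library were 24406001 to 33971610 on fibronectin, 25982627 to 29930894 in knockout and 26453753 to 30280241 in wild-type, and 16703 to 17228 genes had at least 1 count. Chi-square values of 5.37 to 21.8 per degree of freedom between replicates lay above sampling noise, so none looked like a repeat.

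From the counts, edgeR 4.0.16 in R 4.3.3 was fitted to the 6 libraries (TMM scaling, robust quasi-likelihood F test, filterByExpr with a minimum count of 10 and a total of 15) with the clone as a block, and p-values were adjusted over all tested genes by the Benjamini-Hochberg method. A gene was called at an adjusted p under 0.05. Levels are TMM-scaled CPM and ratios per clone use a prior count of 1. GC content is that of the longest transcript in GENCODE 29 on GRCh38, matched by symbol for 12329 of 13257 tested genes (93.0%), whose build differs from that of the counts, so it served only for sequence composition. The GC correction subtracts, per library, a lowess curve (span 0.3) of the deviation from the mean log2 CPM. The labels give the same clone numbers in both groups. Over 10086 genes, deviations from the group means correlated at 0.356, 0.462 and 0.527 within clones 21, 22 and 23, against -0.474 to 0.028 between different clones. Deviations within a group sum to 0 for each gene. Positive values within clones therefore make those between clones negative on average by construction. DESeq2 1.42.0, limma 3.58.1, other scalings, filters and left-out clones were alternatives, and the calculation was tested on simulated data. Without a GC trend in the simulated data, 7 unchanged genes (3.65% of calls) were called, with or without the GC correction. With a GC trend added, the paired fit called 327 unchanged genes (64.5% of calls), and with the GC correction it called 10 (5.21%). How far this applies to the calls from the measured libraries was not tested.

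Named genes are PDCD10, FN1 and 4 integrin genes, the 12 highest and 12 lowest called log2 fold changes at a mean of at least 1 CPM and the same sign in all clones, the 10 smallest p-values and up to 4 members of each of 41 gene lists with the smallest p-values, of which the text gives a selection. Symbols without a standard name were left unnamed. The comparison, its gene lists and tests were chosen with earlier results of these data known.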

Additional observations from a re-analysis of the deposited data

How the results depend on the processing

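The direction of most results held across settings while the number of calls did not. Against 899 genes in the paired fit, the count was 1661 with no filter on low counts, 580 at a mean of at least 5 CPM, 586 after thinning to equal depth, 306 with DESeq2 (3599 genes without an adjusted p), 129 with the GC correction and 144 with GC and length corrected. Without the clone as a replicate block it was 0 over 6 libraries, 1 over all 9 libraries and 0 with the GC correction, an alternative chosen after seeing the data (1019 genes at an unadjusted p under 0.05). Leaving out 1 clone gave 0 to 837 genes. Genes called higher made up 73.3% of calls in the paired fit, 82.1% with DESeq2 size factors, 83.2% with upper-quartile scaling and 49.6% with the GC correction. The mean slope on GC was 0.167 per 10 points, 0.109 to 0.200 without 1 clone, 0.00248 with the GC correction and 0.00292 with GC and length corrected, which those corrections bring about by construction, and the difference of the highest from the lowest GC quintile was 0.373. Among named genes some log2 fold changes turned round. PDCD10 stood at 0.039 with the GC correction, with and without the block, and STAB1 at -0.023 in both. CD151 stood at -0.009 with GC and length corrected. With GC, with GC and length, and with GC but no block, ZYX stood at -0.003, -0.013 and -0.002, COL18A1 at -0.088, -0.006 and -0.088, KLF2 at -0.260, -0.298 and -0.259 and KLF4 at -0.028, -0.018 and -0.029. Leaving out 1 clone gave -0.010 to 0.230 for KLF2 and -0.124 to 0.095 for IER2, which stood at 0.003 over all 9 libraries without the block and at 0.001 with the block and wild-type in the fit. The cause was not tested. TAGLN was called in 14 of 17 alternatives, with a log2 fold change of 0.98 to 1.32. Differences of this size rest on 3 clones, and genes of few reads, such as FOSB and CD14, are the least certain.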
